A study of Mus musculus with 6 samples.

Results

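Expression of 10 genes that encode activin, myostatin and TGF-beta ligands, a secreted antagonist and type II receptors was examined in cultured mouse myoblasts with and without targeting of Psat1. The ligand genes were Inhba, Inhbb, Mstn, Tgfb1, Tgfb2 and Tgfb3, the antagonist gene was Fst, and the receptor genes were Acvr2a, Acvr2b and Tgfbr2. They make up 10 of the 25220 genes in the deposited expression table and were taken by symbol. The set was chosen on measured values of these same libraries, in which the Inhba difference was already known. Their levels and differences between the groups are therefore given as a description, with no test.

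Poly(A) RNA was sequenced from 6 libraries of primary myoblasts of hindlimb muscle, grown with 10% horse serum and 2.5 ng/mL basic fibroblast growth factor. Both groups carried floxed Psat1 alleles (Psat1fl/fl). The 3 Ctrl libraries were Pax7 +/+ and held no Cre, and the 3 Psat1 cKO libraries were Pax7 CRE+/-, with Cre driven by Pax7, a gene of satellite cells and their myoblast progeny. Cre was present in Psat1 cKO alone, so Cre and the targeting of Psat1 cannot be told apart, and whether the Cre was induced is not stated in the labels.

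Values are RPKM, reads scaled to transcript length and to the reads of the library. Levels of different genes are set beside each other on this scale. The transcript lengths used are not given, so ratios, shares and ranks between genes depend on lengths that cannot be checked. Depth estimated from the steps between low values lay between 33800000 and 42900000 reads in Ctrl and between 19500000 and 35200000 reads in Psat1 cKO. Replicate 3 of Psat1 cKO was the shallowest by this estimate. Whole multiples of a depth can fit about as well and the lowest was taken, so true depths could be higher. Psat1 itself stood at 91.8, 93.4 and 100.2 RPKM in Ctrl and at 63.5, 74.7 and 71.8 RPKM in Psat1 cKO. The mean in Psat1 cKO was 73.6% of that in Ctrl (log2 difference -0.44 ± 0.07 SE, limma adjusted p = 0.0225). These values cover the whole gene and do not separate transcripts with and without the floxed part, so they do not measure how complete the deletion was. Omitting Ctrl 1, Ctrl 2, Ctrl 3 or Psat1 cKO 3 ended the Psat1 call, at an adjusted p of up to 0.0829, and omitting either of the other libraries did not. The groups were unbalanced in a further respect: replicate 1 of Ctrl and replicates 1 and 2 of Psat1 cKO expressed Xist, and the other 3 libraries expressed Y-linked Ddx3y. With a term for this split, Psat1 did not pass (limma, adjusted p = 0.0532). The myoblast genes Myod1 and Des were high in all 6 libraries, at no less than 572 and 309 RPKM.

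Activins, myostatin and TGF-betas are secreted dimers of one superfamily. They bind a type II receptor, which activates a type I receptor, which phosphorylates Smad2 and Smad3 so that they enter the nucleus with Smad4. In skeletal muscle, myostatin and activin A are known as inhibitors of muscle growth that share the receptors Acvr2a and Acvr2b, follistatin neutralises both, and TGF-beta is known for its effects on myoblast differentiation and on matrix production.

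Inhba was the member with the greatest difference between the groups and had the highest mean level of the 10 in Psat1 cKO. It encodes the beta-A subunit, which pairs with itself to form activin A (Entrez 16323, GRCm38 chromosome 13, 16004256 to 16031609). Its level was 6.65, 2.82 and 5.63 RPKM in Ctrl and 17.0, 23.5 and 20.3 RPKM in Psat1 cKO. Every Psat1 cKO library was above every Ctrl library, and the lowest value of all was that of Ctrl 2. The means were 5.03 ± 1.98 and 20.2 ± 3.25 RPKM (SD, n = 3 each), a ratio of 4.02. On the scale of log2(RPKM + 0.5), which understates changes of low genes, the difference was 1.97 ± 0.26 (SE). The same scale holds for every log2 difference below. Without Ctrl 2 this difference was 1.64, and over all 6 omissions of 1 library it lay between 1.64 and 2.19.

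Inhbb encodes the beta-B subunit of activin B and of mixed activin dimers (Entrez 16324, chromosome 1, 119415463 to 119422248). It was measured at 1.41, 1.33 and 1.84 RPKM in Ctrl and at 1.80, 1.88 and 2.05 RPKM in Psat1 cKO. The groups overlapped by a narrow margin, since Ctrl 3 was above Psat1 cKO 1. The log2 difference was 0.26 ± 0.11 (SE). The ratio of Inhba to Inhbb was 3.29 ± 1.31 in Ctrl and 10.6 ± 1.65 in Psat1 cKO (SD, n = 3 each).

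Mstn had the most negative difference of the 10 genes, although its groups overlapped. The gene encodes myostatin, a secreted inhibitor of muscle mass (Entrez 17700, chromosome 1, 53061640 to 53068079). Its level was 2.54, 4.25 and 1.80 RPKM in Ctrl and 1.61, 1.96 and 1.17 RPKM in Psat1 cKO. Psat1 cKO 2 was above Ctrl 3, and Ctrl 2 was far above the other 5 libraries. The mean in Psat1 cKO was 55.2% of that in Ctrl and the log2 difference was -0.65 ± 0.26 (SE). Without Ctrl 2 the difference was -0.36. The Ctrl library with the most Mstn was the one with the least Inhba. The ratio of Inhba to Mstn was 2.61, 0.664 and 3.12 in Ctrl and 10.5, 12.0 and 17.3 in Psat1 cKO.

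The TGF-beta ligand genes differed from each other in direction while their sum was nearly level. Tgfb1 (Entrez 21803, chromosome 7, 25687002 to 25705077) was at 10.8, 10.2 and 10.9 RPKM in Ctrl and at 12.4, 15.1 and 14.5 RPKM in Psat1 cKO. All Psat1 cKO values lay above all Ctrl values, and the log2 difference was 0.38 ± 0.08 (SE). Tgfb2 (Entrez 21808, chromosome 1, 186622787 to 186709697) was at 2.27, 2.66 and 1.95 RPKM in Ctrl and at 1.88, 2.29 and 1.28 RPKM in Psat1 cKO, with overlapping groups and a log2 difference of -0.29 ± 0.17 (SE). Tgfb3 (Entrez 21809, chromosome 12, 86056743 to 86079041), the most abundant of the ligand genes in Ctrl, was at 21.2, 24.0 and 21.8 RPKM there and at 19.6, 22.3 and 15.6 RPKM in Psat1 cKO. Its groups also overlapped, with a log2 difference of -0.23 ± 0.12 (SE). Psat1 cKO 3, the library with the lowest estimated depth, was the lowest for both Tgfb2 and Tgfb3. Without Psat1 cKO 3 the log2 differences were -0.11 for Tgfb2, -0.09 for Tgfb3 and 0.35 for Tgfb1. The sum of these 3 genes was 35.3 ± 1.41 RPKM in Ctrl and 35.0 ± 4.27 RPKM in Psat1 cKO (SD, n = 3 each). The ratio of Tgfb3 to Tgfb1 was 1.96, 2.35 and 2.01 in Ctrl and 1.58, 1.48 and 1.08 in Psat1 cKO, so every Psat1 cKO library had the lower ratio.

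**Figure D1:**
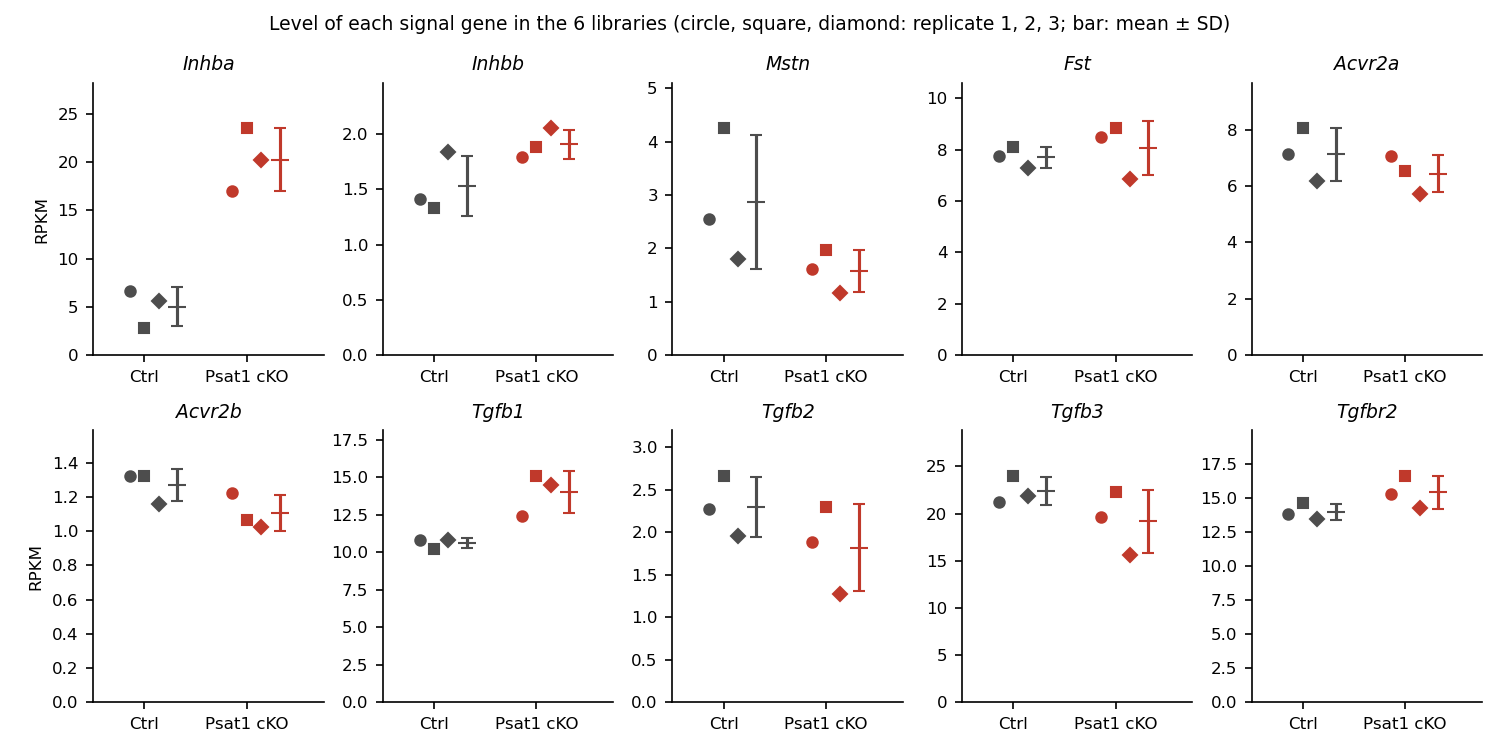
RPKM (vertical axes, each from 0) of the 10 genes in the 3 Ctrl and 3 Psat1 cKO libraries, with the mean and SD of each group beside the points. Inhba and Tgfb1 have groups that do not overlap, as do 20.5% of all genes tested, and the other 8 genes overlap.

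Inhba held a larger share of the ligand transcripts in every Psat1 cKO library than in any Ctrl library. The 6 ligand genes summed to 45.0, 45.3 and 43.9 RPKM in Ctrl and to 54.3, 67.1 and 54.9 RPKM in Psat1 cKO. Inhba made up 14.8%, 6.23% and 12.8% of that sum in Ctrl and 31.3%, 35.0% and 36.9% in Psat1 cKO. The share of Tgfb3 was 50.0 ± 2.88% in Ctrl and 32.6 ± 3.85% in Psat1 cKO, while that of Tgfb1 was 23.8 ± 1.10% and 23.9 ± 2.12% (SD, n = 3 each). Shares within one sum depend on each other, so these values show the balance of transcripts and not separate changes. They are levels of RNA and give no amount of secreted or active ligand.

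The promoters of Inhba, Mstn and Tgfb1 are shown because these genes had the most positive, the most negative and the other non-overlapping difference. RefSeq (GRCm38.p6) gave a promoter for 8 of the 10 genes. Each sequence below is the 250 bases before the RefSeq transcription start, on the plus strand. The windows are chr13:16011601-16011850 for Inhba, whose start lies inside the longer annotated gene span, chr1:53061390-53061639 for Mstn and chr7:25686752-25687001 for Tgfb1. Capitals mark matches on either strand to CAGAC (the SMAD box), TGANTCA (the AP-1 site), TGACGTCA (the cyclic AMP response element), CANNTG (the E-box bound by Myod1 and its relatives) and TATAAA (the TATA box).
Inhba: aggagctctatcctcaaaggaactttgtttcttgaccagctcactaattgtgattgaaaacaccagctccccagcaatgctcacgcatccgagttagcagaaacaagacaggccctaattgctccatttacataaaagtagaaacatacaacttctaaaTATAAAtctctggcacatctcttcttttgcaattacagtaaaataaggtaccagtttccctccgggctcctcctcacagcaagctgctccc
Mstn: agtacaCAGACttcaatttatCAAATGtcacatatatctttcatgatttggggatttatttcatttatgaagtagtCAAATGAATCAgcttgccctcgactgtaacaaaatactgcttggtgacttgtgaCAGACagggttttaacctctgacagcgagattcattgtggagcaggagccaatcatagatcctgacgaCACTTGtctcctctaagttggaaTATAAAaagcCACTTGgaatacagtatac
Tgfb1: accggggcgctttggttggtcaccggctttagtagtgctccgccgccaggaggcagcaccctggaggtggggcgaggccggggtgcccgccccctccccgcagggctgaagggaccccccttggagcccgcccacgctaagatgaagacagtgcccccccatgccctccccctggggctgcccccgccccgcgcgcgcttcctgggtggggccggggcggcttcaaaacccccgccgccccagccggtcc

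The Inhba window held a single match, a TATAAA whose first base lies 91 bases before the start. The Mstn window held 2 matches to CAGAC, 1 to TGANTCA, 4 to CANNTG and a TATAAA 29 bases before the start, and the TGANTCA match at 170 bases shares letters with a CANNTG match that begins just before it. The Tgfb1 window held none of the 5 motifs and was 75.2% G and C, against 43.2% for Inhba and 38.4% for Mstn. Among 32851 RefSeq promoter windows of the same length, 42.2% held CAGAC, 6.75% TGANTCA, 1.55% TGACGTCA, 66.2% CANNTG and 12.4% TATAAA. A match is a run of letters and no measured site, and an absent match says only that these letters are not in the window.

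Fst, for the secreted protein follistatin that binds and neutralises activins and myostatin (Entrez 14313, chromosome 13, 114452262 to 114458989), was nearly level. It was measured at 7.76, 8.09 and 7.28 RPKM in Ctrl and at 8.50, 8.83 and 6.86 RPKM in Psat1 cKO. The Psat1 cKO libraries held both the highest and the lowest value, and the log2 difference was 0.05 ± 0.10 (SE). The ratio of Inhba to Fst was 0.856, 0.349 and 0.773 in Ctrl and 2.0, 2.66 and 2.95 in Psat1 cKO. In RPKM, Inhba was thus below Fst in all 3 Ctrl libraries and above it in all 3 Psat1 cKO libraries. Which of the genes is higher depends on the transcript lengths used for RPKM, which are not given.

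**Figure D2:**
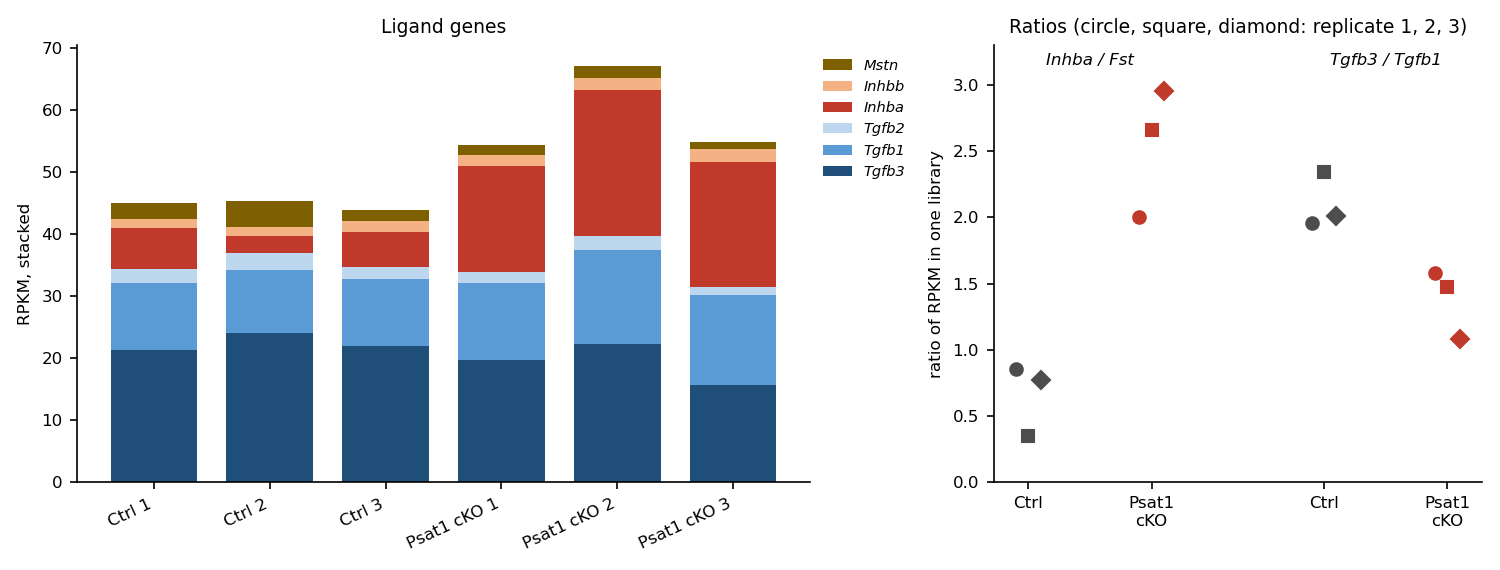
Left, RPKM of the 6 ligand genes stacked for each library. Right, the ratio of Inhba to Fst and of Tgfb3 to Tgfb1 (no unit, axis from 0) in each library. The Inhba segment spans between 2.82 and 6.65 RPKM in Ctrl and between 17.0 and 23.5 RPKM in Psat1 cKO, and the Tgfb3 to Tgfb1 ratio is lower in all Psat1 cKO libraries.

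The type II receptor genes varied little. Acvr2a, for the type II receptor shared by activins and myostatin (Entrez 11480, chromosome 2, 48814109 to 48903264), was at 7.13, 8.05 and 6.19 RPKM in Ctrl and at 7.06, 6.54 and 5.73 RPKM in Psat1 cKO, with a log2 difference of -0.13 ± 0.11 (SE). Acvr2b, which encodes the related receptor with high affinity for myostatin (Entrez 11481, chromosome 9, 119401583 to 119442148), was at 1.32, 1.32 and 1.16 RPKM in Ctrl and at 1.22, 1.06 and 1.03 RPKM in Psat1 cKO, with a log2 difference of -0.14 ± 0.10 (SE). Both pairs of groups overlapped, and the ratio of Acvr2a to Acvr2b was 5.61 ± 0.409 in Ctrl and 5.84 ± 0.284 in Psat1 cKO (SD, n = 3 each). Tgfbr2, for the TGF-beta type II receptor (Entrez 21813, chromosome 9, 116087695 to 116175363), was at 13.8, 14.6 and 13.4 RPKM in Ctrl and at 15.3, 16.6 and 14.3 RPKM in Psat1 cKO. Its groups overlapped, with a log2 difference of 0.14 ± 0.07 (SE). The 3 receptor genes summed to 22.4 ± 1.62 RPKM in Ctrl and 23.0 ± 1.70 RPKM in Psat1 cKO.

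In order of mean RPKM in Ctrl, the genes ran Tgfb3, Tgfbr2, Tgfb1, Fst, Acvr2a, Inhba, Mstn, Tgfb2, Inhbb and Acvr2b. The ranges of neighbours overlapped from Fst through to Tgfb2, and the other neighbours were apart. In Psat1 cKO the order was Inhba, Tgfb3, Tgfbr2, Tgfb1, Fst, Acvr2a, Inhbb, Tgfb2, Mstn and Acvr2b. There the ranges overlapped between neighbours from Inhba to Tgfb1, between Fst and Acvr2a, and from Inhbb to Acvr2b. Inhba thus moved from rank 6 to rank 1, with a range that overlapped that of Tgfb3, and the other 9 genes kept their places or moved by at most 2 ranks.

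Of 12251 genes tested, 280 (2.29%) passed an adjusted p under 0.05 in limma, 220 of them higher (1.8%) and 60 lower (0.49%) in Psat1 cKO. All 10 signal genes passed the filter on low values, a mean of 0.5 RPKM or more, and 1 of the 10, Inhba, was among the higher genes. The groups did not overlap for 2 of the 10, Inhba and Tgfb1, and for 20.5% of all genes tested. In the authors' deposited table, 115 of 21525 genes with a q-value had q under 0.05 (0.534%) and none of the 10 did, with the lowest q for Inhba at 0.0626 and then Tgfb1 at 0.155. Nothing is read from these counts, since the same contrast led to the choice of the genes. Of the 10 differences 5 were positive and 5 negative, with a median log2 difference of -0.04, against -0.01 over all genes tested.

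Differences were also taken within each side of the split by Xist and Y-linked expression, as a description. Inhba differed by 1.52 on the log2 scale among libraries that expressed Xist and by 2.20 among the Y-linked ones. Tgfb1 differed by 0.33 and 0.44 and Mstn by -0.42 and -0.98. Tgfb3 differed by -0.02 and -0.54 and Tgfb2 by -0.10 and -0.65. Fst changed sign, at 0.15 and -0.15. Each side has 1 library in a group, so these values have no test.

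Among genes whose levels followed Inhba most closely over the 6 libraries were Akap12, a scaffold protein of kinase signalling, with Pearson r of 0.998, the calcium-binding S100a4 with 0.996 and the glutathione transferase Gsto1 with 0.996. Akap12 was at 11.2, 5.65 and 9.97 RPKM in Ctrl and at 26.3, 36.9 and 28.2 RPKM in Psat1 cKO. Among those closest to Mstn were the matrix protein gene Npnt (0.992) and Prkag3 (0.985), a muscle subunit of AMP-activated kinase. These correlations describe 6 libraries that share 2 groups and carry no p.

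The pathway genes outside the 10 were counted by list. Of 103 listed genes 83 could be tested, of which 10 were higher and 1 was lower in Psat1 cKO (limma, adjusted p under 0.05), with a median log2 difference of 0.04 against -0.01 over all genes tested. The groups did not overlap for 33 of the 83, against 20.5% of all genes tested. The lists were drawn up with earlier results of these libraries known, so their counts are a description of these genes.

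The remaining activin-type and BMP-type ligand genes held no called gene. Of 7 activin-type genes 3 were tested, and all 3 had negative differences, as had 6632 of all 12251 genes tested. Gdf11, the closest relative of myostatin, stood at 7.55 ± 1.44 RPKM in Ctrl and 6.28 ± 0.379 RPKM in Psat1 cKO (log2 difference -0.23, adjusted p = 0.436). Inha, whose product joins with the Inhba product to form inhibin A, had means of 7.24 and 5.73 RPKM. Gdf1 had a log2 difference of -0.34 (adjusted p = 0.187), but its annotated exons overlap those of Cers1 on the same strand, so their reads could not be told apart. Of 8 BMP-type and divergent ligand genes 4 were tested. Bmp6 came nearest the threshold, at 0.376, 0.152 and 0.378 RPKM in Ctrl and 0.737, 0.852 and 1.23 RPKM in Psat1 cKO (log2 difference 0.84, adjusted p = 0.0600), and Gdf6 had a log2 difference of 0.21 (adjusted p = 0.635).

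None of the 8 tested genes for other receptors and co-receptors passed, and their median log2 difference was -0.01. The type I receptor genes of activin and of TGF-beta were near level. Acvr1b, the type I receptor of activin, was at 4.21 ± 0.104 RPKM in Ctrl and 4.17 ± 0.477 RPKM in Psat1 cKO (SD, n = 3 each), and Tgfbr1, that of TGF-beta, at 7.64, 7.68 and 7.35 RPKM in Ctrl and 8.18, 6.98 and 7.52 RPKM in Psat1 cKO. The co-receptor gene Eng (endoglin) was at 4.27, 3.91 and 5.95 RPKM in Ctrl and 7.10, 9.44 and 8.24 RPKM in Psat1 cKO, without overlap (log2 difference 0.76, adjusted p = 0.0516). It passed with median-ratio scaling (adjusted p = 0.0481) and without Ctrl 3 (adjusted p = 0.0337). Acvrl1, a type I receptor best known in endothelial cells, had means of 0.732 ± 0.173 RPKM in Ctrl and 1.38 ± 0.484 RPKM in Psat1 cKO, also without overlap (log2 difference 0.59, adjusted p = 0.212).

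Of the 8 tested genes for other extracellular inhibitors and binding proteins, 2 rose and none fell, with a median log2 difference of 0.47. Fstl1, a secreted follistatin-like glycoprotein, was at 12.1, 10.7 and 15.8 RPKM in Ctrl and 22.3, 29.6 and 21.3 RPKM in Psat1 cKO, with a log2 difference of 0.90 ± 0.16 SE (limma, adjusted p = 0.0327). It was higher in all Psat1 cKO libraries than in any Ctrl library. Fstl3, which binds activins and myostatin as follistatin does, stood at 3.29 ± 0.151 RPKM in Ctrl and 4.04 ± 0.430 RPKM in Psat1 cKO and did not pass (log2 difference 0.26, adjusted p = 0.216). Fstl1 passed in 1 of the 6 fits with a library omitted, that without Ctrl 3, with an adjusted p of up to 0.112.

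Among 14 tested genes of latency and activation, 1 rose. Tll1, for a tolloid-like protease of the family of Bmp1, was at 1.17, 0.470 and 0.940 RPKM in Ctrl and 3.25, 4.53 and 3.21 RPKM in Psat1 cKO, with a log2 difference of 1.64 ± 0.21 SE (adjusted p = 0.0138). It passed whichever library was omitted, with an adjusted p of at most 0.0492. Ltbp2, a matrix protein of the latent TGF-beta binding protein family, was at 1.21 ± 0.477 RPKM in Ctrl and 3.81 ± 1.47 RPKM in Psat1 cKO (log2 difference 1.32, adjusted p = 0.0516, and 0.0496 with median-ratio scaling). Lrrc32, which anchors latent TGF-beta at the cell surface, was at 1.27, 0.617 and 1.79 RPKM in Ctrl and 2.63, 6.16 and 5.20 RPKM in Psat1 cKO (adjusted p = 0.0602). The more abundant Ltbp1 and Ltbp3, which hold TGF-beta in its latent complex, had means of 45.4 and 45.4 RPKM in Ctrl and 38.3 and 42.7 RPKM in Psat1 cKO, and neither passed (adjusted p = 0.345 and 0.587).

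Of 16 tested SMAD genes and regulators 1 rose, and the median log2 difference was -0.03. Smurf2, an E3 ubiquitin ligase that targets SMADs and TGF-beta receptors, was at 19.5, 17.1 and 16.7 RPKM in Ctrl and 23.1, 22.8 and 22.9 RPKM in Psat1 cKO (log2 difference 0.36 ± 0.06 SE, adjusted p = 0.0321). It passed in 1 of the 6 fits with a library omitted, that without Ctrl 1, with an adjusted p of up to 0.140. Smad7, the inhibitory SMAD that is itself a target of TGF-beta, was at 7.51 ± 0.308 RPKM in Ctrl and 9.35 ± 0.728 RPKM in Psat1 cKO, without overlap (log2 difference 0.30, adjusted p = 0.0855). Smad2, Smad3 and Smad4 had log2 differences of -0.04, 0.01 and -0.05 and did not pass (adjusted p = 0.831, 0.989 and 0.722). Phosphorylation, the step by which these proteins are activated, is not read by RNA.

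The list of TGF-beta and activin target genes held the most calls, with 6 of 19 tested genes higher and 1 lower, and a median log2 difference of 0.55. Ccn2, for connective tissue growth factor, was at 34.5, 22.9 and 41.8 RPKM in Ctrl and 67.4, 95.4 and 76.2 RPKM in Psat1 cKO (log2 difference 1.28 ± 0.21 SE, adjusted p = 0.0259). The groups were apart, and as for Inhba the lowest library was Ctrl 2 and the highest Psat1 cKO 2. Col1a2, a chain of type I collagen, rose with a log2 difference of 1.81 (adjusted p = 0.0329), Lox, which cross-links collagen and elastin, with 1.44 (adjusted p = 0.0417) and Tagln, for the actin-binding transgelin, with 1.53 (adjusted p = 0.0378). The oxidase gene Nox4 rose from 0.323 ± 0.0910 to 0.803 ± 0.0370 RPKM (log2 difference 0.67, adjusted p = 0.0362). Snai2, for a transcriptional repressor of the Snail family, fell from 30.7 ± 1.37 to 25.4 ± 0.321 RPKM (log2 difference -0.27, adjusted p = 0.0367).

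Of the 19 differences in this list 16 were positive and 3 negative, against 5619 and 6632 of all 12251 genes tested. In this list 12 genes did not pass. Of those 12, Pmepa1 and Tsc22d1 alone had negative differences. Pmepa1, a feedback inhibitor of TGF-beta signalling, was lower in all Psat1 cKO libraries, at 44.2 ± 1.37 RPKM in Ctrl and 35.9 ± 4.27 RPKM in Psat1 cKO (log2 difference -0.30, adjusted p = 0.140). Klf10, an early target, had a log2 difference of 0.02 (adjusted p = 0.922), and Acta2, for smooth muscle actin, of 0.14 (adjusted p = 0.828). Col1a1, the partner of Col1a2, had means of 3.57 and 9.91 RPKM and did not pass (adjusted p = 0.107). The calls of Ccn2, Col1a2, Lox, Tagln, Nox4 and Snai2 did not survive every omission of 1 library. Ccn2 passed in 3 of the 6 fits (without Ctrl 2, Ctrl 3 or Psat1 cKO 1), Col1a2 in 2 (without Ctrl 3 or Psat1 cKO 1) and Tagln in 2 (without Ctrl 1 or Ctrl 2). Nox4 passed in 1 (without Ctrl 1), and Lox and Snai2 in none. In this order the highest adjusted p was 0.0816, 0.0919, 0.117, 0.141, 0.122 and 0.150, each without Ctrl 2 or without Psat1 cKO 2. With a term for the Xist and Y-linked split, 2 of the 10 higher pathway genes passed, and Tll1 was among them.

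**Figure D3:**
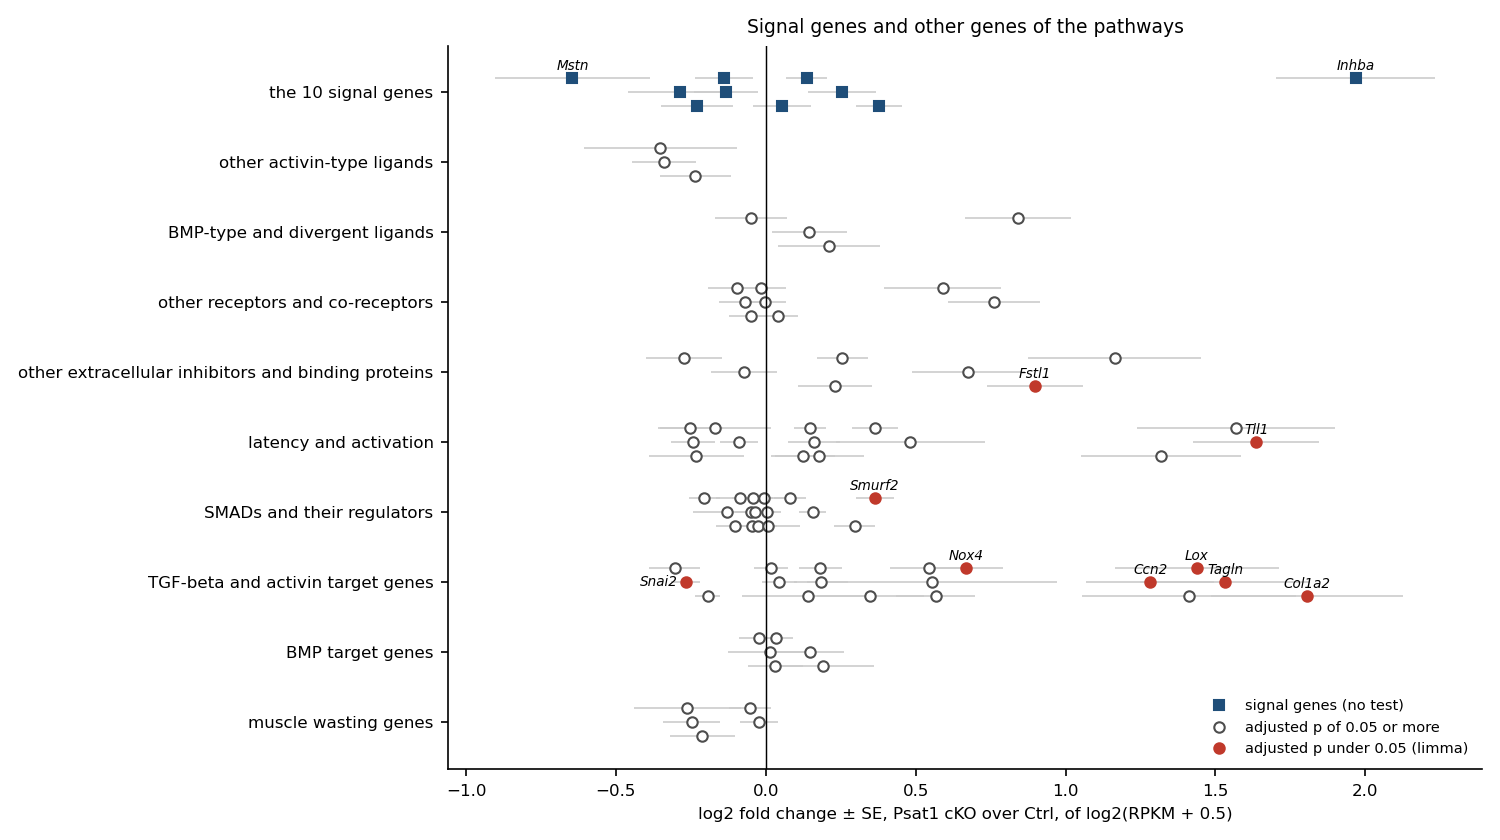
Log2 difference with its standard error (horizontal axis, Psat1 cKO over Ctrl, from log2(RPKM + 0.5)) of the 10 signal genes (squares, no test) and of 81 tested pathway genes by list (filled circles: adjusted p under 0.05 in limma). Filled circles number 8 to the right of 0 and 1 to its left, and Inhba lies at 1.97.

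No BMP target gene and no muscle wasting gene passed. The 6 tested BMP target genes had a median log2 difference of 0.03 and no list member without overlap. Id1 and Id3, which respond early to BMPs, stood at 105.3 ± 4.33 and 423.9 ± 17.1 RPKM in Ctrl and 107.9 ± 6.07 and 417.6 ± 27.3 RPKM in Psat1 cKO. Id4 and Msx1 had log2 differences of 0.15 and 0.19 (adjusted p = 0.619 and 0.672). All 5 tested muscle wasting genes had negative differences, with a median of -0.21, as had 6632 of all 12251 genes tested. The groups did not overlap for 2 of the 5, Foxo1 and Fbxo32, against 20.5% of all genes tested. Foxo1, a transcription factor of atrophy, had a log2 difference of -0.25 (adjusted p = 0.293) and Fbxo32, for the ubiquitin ligase atrogin-1, of -0.21 (adjusted p = 0.439).

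Several markers of other cells were higher in Psat1 cKO, as were Inhba and matrix targets, and other markers were not. Of 10 markers of fibro-adipogenic progenitors, the stromal cells of muscle, 5 were tested and 4 rose: Pdgfra, Cd34, Smoc2 and Mfap5, with log2 differences of 1.66, 1.35, 1.60 and 1.24 (adjusted p = 0.00934, 0.0164, 0.0227 and 0.0489). Ly6a, also tested, did not pass (log2 difference 0.16, adjusted p = 0.659), and its groups overlapped. Ly6c1 was not tested, with means of 0.360 RPKM in Ctrl and 0.292 RPKM in Psat1 cKO. The 10 markers summed to between 9.94 and 12.0 RPKM in Ctrl and between 24.8 and 34.3 RPKM in Psat1 cKO. Cd34 was the largest part of this sum in every library, at 6.64, 7.03 and 4.71 RPKM in Ctrl and 14.9, 13.2 and 21.6 RPKM in Psat1 cKO. The difference in the sum therefore rests largely on Cd34. Whether the Cd34 RNA came from stromal cells or from myoblasts was not tested. Pdgfra was at 0.510, 0.326 and 0.376 RPKM in Ctrl and 1.63, 2.87 and 2.71 RPKM in Psat1 cKO, while Dpt and Pi16 were at 0 in all Ctrl libraries and at most 0.0299 and 0.0126 RPKM in Psat1 cKO, and Lum was not tested, at 0.0286, 0.0244 and 0.0223 RPKM in Ctrl and 0.0955, 0.0665 and 0.123 RPKM in Psat1 cKO, low in every library but without overlap. The call of Pdgfra held in all 6 omissions of 1 library and that of Cd34 in 5 (adjusted p = 0.0518 without Ctrl 2), while Smoc2 held without Psat1 cKO 1 or Psat1 cKO 2 and Mfap5 without Ctrl 1 alone. In bulk RNA, more cells of a type and more RNA per cell cannot be told apart. The part of stromal cells in the Inhba difference and in those of the pathway genes was not tested.

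Of 6 markers of smooth muscle and pericytes 4 were tested and Mcam rose (log2 difference 1.01, adjusted p = 0.0133). Pdgfrb and Cspg4 did not pass (adjusted p = 0.0845 and 0.238), but their groups did not overlap, with means of 0.504 and 0.711 RPKM in Ctrl and 1.87 and 1.36 RPKM in Psat1 cKO. The 6 markers' sum was 7.80 ± 1.38 RPKM in Ctrl and 15.8 ± 0.987 RPKM in Psat1 cKO, and Myh11, the smooth muscle myosin gene, was at most 0.495 RPKM in any library. Endothelial markers (3 tested) and immune markers (2 tested) held no called gene, with sums of 3.36 ± 1.14 and 19.8 ± 3.12 RPKM in Ctrl and 6.22 ± 4.31 and 15.4 ± 2.98 RPKM in Psat1 cKO. Cdh5, an endothelial cadherin gene, was at 1.42, 0.667 and 0.887 RPKM in Ctrl and 1.79, 1.94 and 2.44 RPKM in Psat1 cKO, without overlap (log2 difference 0.80, adjusted p = 0.0845). The endothelial sum reached 11.2 RPKM in Psat1 cKO 3, and Ptprc, the pan-leukocyte gene, was at most 0.0812 RPKM. Most of the immune sum was Laptm5, at 18.5 ± 3.02 RPKM in Ctrl and 13.5 ± 2.36 RPKM in Psat1 cKO. Laptm5 was lower in all Psat1 cKO libraries, without overlap, and did not pass (log2 difference -0.44, adjusted p = 0.230). The myoblast markers summed to 1976 ± 198 RPKM in Ctrl and 1704 ± 147 RPKM in Psat1 cKO, and of the 7 tested Myf5 and Pax7 fell (log2 differences -1.13 and -0.60, adjusted p = 0.0138 and 0.00907), with Myf5 at an adjusted p of 0.0554 without Ctrl 2. The genotype at Pax7 itself differs between the groups (Pax7 CRE+/- in Psat1 cKO, Pax7 +/+ in Ctrl), so for Pax7 an effect of that allele and one of the Psat1 deletion cannot be told apart. The part of these cell types in the results was not tested.

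**Figure D4:**
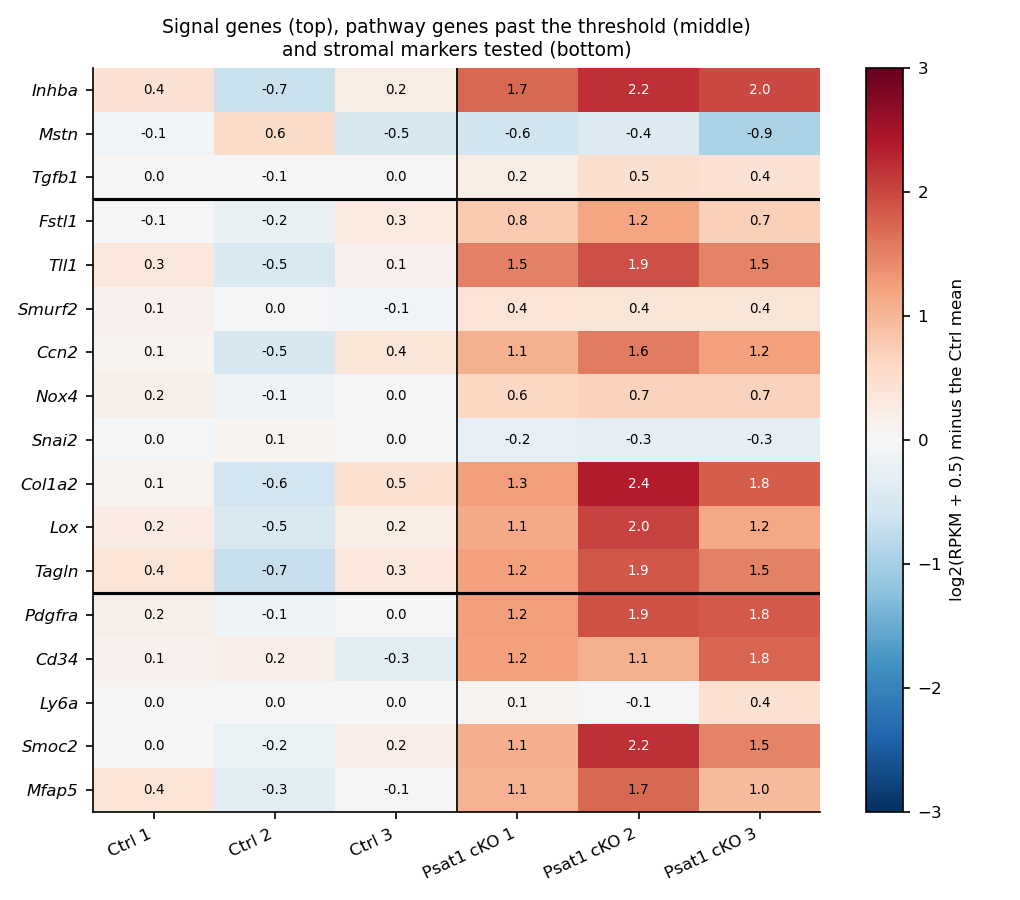
Difference of log2(RPKM + 0.5) in each library from the mean of the 3 Ctrl libraries for Inhba, Mstn and Tgfb1, 9 pathway genes past the threshold and the 5 stromal markers tested. Inhba is 1.73 to 2.19 above the Ctrl mean in Psat1 cKO. It is lowest in Ctrl 2 and highest in Psat1 cKO 2, as are Tgfb1, 7 of the 9 pathway genes and 3 of the 5 stromal markers. The share of all genes with these extremes was not counted, so nothing is read from these numbers.

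Approximate read numbers give the counting error of the low genes, which leaves out the spread between libraries. From RPKM, the estimated depth and the summed exon length in GENCODE M21, Mstn rested on about 62 to 452 reads, Acvr2b on 79 to 205, Tgfb2 on 144 to 606 and Inhbb on 170 to 336. For Mstn the Ctrl libraries alone spanned 209 to 452 reads. Inhba rested on 709 to 4324 reads. The fewest reads for Mstn, Acvr2b, Inhbb and Tgfb2 were in Psat1 cKO 3. Exons of Acvr2a overlap those of Orc4 on the opposite strand, and those of Fst, Tgfb2 and Tgfb3 overlap annotated noncoding or unclassified transcripts on the opposite strand. Whether counting used the strand is not given in the sources used here, so such reads cannot be assigned with certainty. The same holds for Bmp6, whose exons overlap Txndc5, and for Eng and Tagln, which overlap Fpgs and Pcsk7. It holds as well for Ccn2, Lox, Ltbp2, Acvrl1, Id4, Foxo1 and Fbxo32, whose exons overlap annotated noncoding transcripts on the opposite strand. Exons of Smurf2 overlap a microRNA gene on the same strand. Exons of Inhba, Inhbb, Mstn, Acvr2b, Tgfb1 and Tgfbr2 overlap those of no other annotated gene.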

How the data were processed

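RPKM values were deposited by the authors for 25220 genes in 6 poly(A) libraries. A second deposited table compares the groups and holds group means of log2(RPKM + 0.001), a ratio and q-values, per the file headers. A q-value is missing for 3695 genes. RNA was extracted with Trizol and 500 ng went into NEBNext Ultra II libraries, per the labels' protocols. Trim Galore 0.6.6, TopHat2 2.1.1, Partek and mm10 are named in the submitters' processing notes, without role or order. How genes were annotated and reads counted is not given in the sources used here.

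Genes at 0.5 RPKM or more on average were tested on log2(RPKM + 0.5) with limma 3.58.1 in R 4.3.3 (eBayes with a variance trend, genotype as the term, no block). Benjamini-Hochberg adjustment ran over all 12251 genes tested, with a threshold of 0.05, and the code was tested on simulated data. The values are not counts, so no count test was used: between 27.9% and 34.5% of low values were within 1% of whole reads at the depth estimated. The median share over the depths tried was 1.73% to 2.16%. Where multiples of a depth fit about as well, the lowest was taken, so read numbers could be higher by a whole factor. Read numbers set the counting error only. Whether replicates are separate animals or cultures is not said in the labels, and p-values therefore measure only the spread between these samples. No pair of libraries shared more than 0.0327% of its values.

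The signal genes, pathway lists and marker lists were chosen with earlier results of these data known. Named were all 10 signal genes, the pathway genes past the threshold, in lists with fewer than 2 of these the tested genes of smallest p up to 2, and, by likeness, the 3 genes of at least 2 RPKM with the highest Pearson r to Inhba and to Mstn. Some genes that this rule takes are left out of the text and plots and not reported here, though counts include them. Other names in the text were picked after their values were seen, as were Inha, Acvr1b, Tgfbr1, Fstl3, Lrrc32, Ltbp1, Ltbp3, Smad2, Smad3, Smad4, Pmepa1, Klf10, Acta2, Col1a1, Id1 and Id3. Gene positions and promoters are from RefSeq for GRCm38.p6, exon lengths and overlaps from GENCODE M21. Alternatives tried were a pseudocount of 0.1 or 1, a filter at 2 RPKM or none, median-ratio scaling, a block for the replicate number, quantile normalization, a term for the Xist and Y-linked split, no variance trend and each library left out in turn. Python 3.11.15 (pandas 2.3.3, numpy 2.4.6, matplotlib 3.10.9) was used for tables and plots.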

Additional observations from a re-analysis of the deposited data

How the results depend on the processing

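The log2 difference of each of the 10 signal genes moved by less than the spread between replicates under every alternative in which the gene was tested. For most settings this was fixed in advance and shows no robustness. The replicate block, the filters and the fit without a variance trend leave a log2 difference unchanged. Omitting 1 library from groups of this size cannot move it by as much as that spread. Only the pseudocounts, the scalings and the term for the Xist and Y-linked split could have done so. Inhba ranged from 1.64 to 2.19, Tgfb1 from 0.32 to 0.46 and Mstn from -0.89 to -0.36, while Fst ranged from -0.01 to 0.16. At a filter of 2 RPKM, Inhbb, Acvr2b, Nox4 and the markers Pdgfra and Mfap5 were among the genes not tested. Inhba was among the calls in 14 of the 16 settings, and not without a filter or without Psat1 cKO 2. Tgfb1 joined it without Psat1 cKO 1. Over these settings, between 1 (no filter) and 235 (median-ratio scaling) of all genes tested were called higher. Nothing is read from the calls of Inhba and Tgfb1, since the same contrast led to the choice of the genes. No scaling moved the median of all genes by 0.1 on the log2 scale.

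Without a filter, 20767 genes were tested, with 1 called higher and 3 lower (220 and 60 in the reported fit), 0 of the pathway genes called either way and 0 other-cell markers higher. The replicate block gave 121 lower genes in all, 6 higher and 0 lower pathway genes and 1 lower other-cell marker. Deviations of same-numbered libraries correlated at 0.20, -0.03 and 0.17. Differently numbered libraries were not compared in this way, so whether the numbers pair the libraries is not settled. The term for the Xist and Y-linked split gave 2 higher and 0 lower pathway genes and 3 higher markers. No variance trend gave 4 and 0 pathway genes, quantile normalization 0 lower ones, and the filter at 2 RPKM 3 higher markers. With any 1 library omitted, 54 to 173 genes were higher and 12 to 55 lower, with 2 to 8 higher and 0 to 0 lower pathway genes and 2 to 5 higher markers. At the filter of 2 RPKM the called markers Pdgfra and Mfap5 fell below the filter, and Cd34, Smoc2 and Mcam stayed called. The cause of the other moves was not tested. The lowest read numbers were those of Mstn, Acvr2b, Tgfb2 and Inhbb.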
